A study of Homo sapiens with 12 samples.

Results

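The 47 genes described here were the listed cyclins, cyclin-dependent kinases (CDKs), CDK inhibitors, pocket proteins, E2F factors and their closest regulators, taken by symbol from the 54127 genes counted. RNAseq was performed on C4-2 cells, an androgen-responsive prostate cancer line derived from LNCaP cells, in 12 libraries. Of these, 6 were from cells given DMSO vehicle and 6 from cells given PBKi (HI-TOPK-032, also called TOPK32, a small molecule that inhibits the kinase PBK) at 1 µM for 6 h. Both groups were grown in RPMI with serum, 1 dose and 1 time were sampled in 1 cell line, and no source used here says that replicates were separate cultures, so p-values measure the spread between these libraries, which may be technical. The labels say that the RNA came from flow-sorted cells and tag the PBKi samples alone with an antibody to PBK, whereas the study's methods mention neither for RNAseq. Each DMSO library held 9663203 to 28029908 reads on genes, and each PBKi library 13122415 to 22817803.

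Cyclins are the regulatory subunits that switch CDKs on at set stages of the cell cycle. D-type cyclins with CDK4 or CDK6, and then E-type cyclins with CDK2, phosphorylate the pocket proteins RB1, RBL1 and RBL2, which releases E2F factors to transcribe the genes of DNA synthesis. A-type and B-type cyclins carry the cell through S phase and into mitosis, and their genes are driven by the MuvB complex together with MYBL2 and FOXM1. INK4 inhibitors act on CDK4 and CDK6, Cip/Kip inhibitors act mainly on CDK2, and SKP2 with its cofactor CKS1B marks the Cip/Kip protein p27 for degradation. In prostate cancer cells the androgen receptor is known to promote entry into S phase.

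Transcripts of 24 of the 46 members tested (52.2%) were lower in PBKi than in DMSO and those of 2 (4.35%) were higher, at an adjusted p under 0.05 with n = 6 in each group. Over all 14505 genes tested, 21.5% were called lower and 20.1% higher. The members were chosen with earlier results of these data known, and the difference between these shares was not tested. The largest change was a rise in CDKN2B, which encodes the INK4 inhibitor p15, and the largest falls were in the Cip/Kip inhibitor CDKN1C and in CKS1B. All 3 members of the SKP2 and CKS group and both DP partners were downregulated. So were 3 of the 4 cyclins of the A, B and F types. Of the 4 D-type and E-type cyclins tested 1 was downregulated, and of the 4 CDKs among the members 1 was. These groups are too small to set against the share of all genes called lower. The falls were small, from -0.74 to -0.15 on the log2 scale, which left PBKi at 59.3% to 90.4% of the DMSO level, and 22 of the 24 were smaller than 0.5. The median log2 fold change of the tested members was -0.20, beside -0.012 over all genes tested.

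Groups did not overlap, meaning that the highest library of the lower group lay under the lowest of the higher group, for 15 of the downregulated members (32.6% of those tested) and for CDKN2B. Over all genes tested, 9.68% were separated in this way with PBKi lower and 10.5% with PBKi higher. The remaining member, CCND2, was not tested because it had at most 4 counts in any library. The other 20 members were not called, with log2 fold changes from -0.33 to 0.23, of which 8 were below 0 and 12 above. A lower level per cell and a smaller share of cells in the stage that expresses a gene cannot be told apart in these bulk samples.

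**Figure D1:**
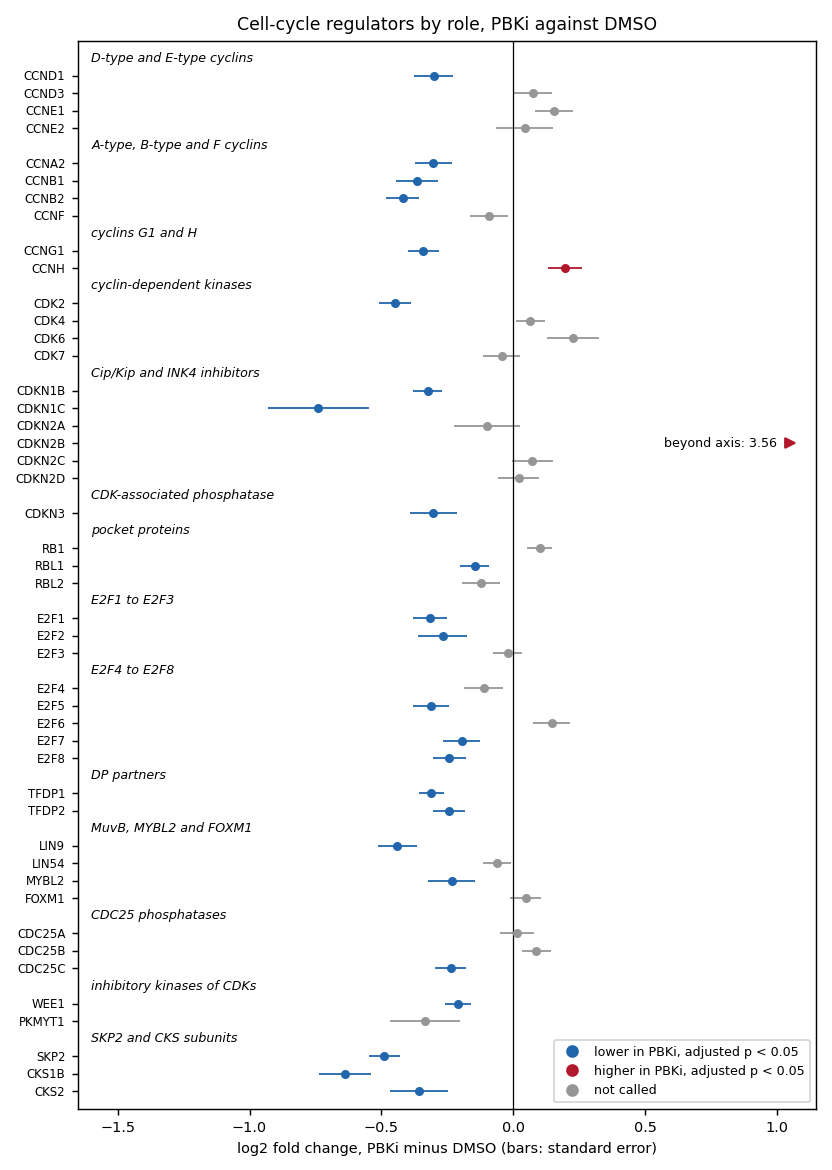
Log2 fold change of PBKi over DMSO (x axis; bars, standard error; n = 6 in each group) for the 46 tested members, grouped by role. Blue points are the 24 members called lower, red the 2 called higher and grey the 20 not called; CDKN2B, at 3.56, lies beyond the axis.

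CDKN2B was higher in every PBKi library than in any DMSO library. Its p15 protein binds CDK4 and CDK6 and keeps D-type cyclins from activating them. The gene (ENSG00000147883) lies at chr9:22002902-22009304 on the minus strand of GRCh37. Its expression, as CPM (reads on the gene relative to the TMM-scaled library total), was 0.252 to 0.768 CPM (median 0.319) in DMSO and 3.16 to 6.44 CPM (median 5.01) in PBKi. The DMSO libraries held 3 to 16 counts each and 40 in all, and the PBKi libraries 42 to 152 each and 513 in all, a ratio of 12.2 after scaling for depth (95% interval 8.81 to 17.2, counting error only). The log2 fold change was 3.56 (SE 0.255, adjusted p = 8.06e-09). It passed the count filter only through the PBKi libraries, and DMSO replicate 1 held 16 of the 40 DMSO counts. Without that library the log2 fold change was 3.94.

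Of the genes beside CDKN2B on chromosome 9, those tested were not called. CDKN2A, which encodes the INK4 inhibitor p16 and the protein ARF, measured 5.61 to 10.3 CPM (median 7.64) in DMSO and 6.20 to 8.05 CPM (median 7.30) in PBKi, so the groups overlapped (log2 fold change -0.10, SE 0.126, adjusted p = 0.554, 95% interval -0.35 to 0.15, where such intervals are for the single gene and are not adjusted). MTAP, a gene of methionine salvage on the far side of CDKN2A, had a log2 fold change of -0.084 (adjusted p = 0.190). CDKN2B-AS1, the antisense transcript of this locus, held 8 counts in DMSO and 19 in PBKi and was not tested. CDKN2A and CDKN2B are similar in sequence, and reads that could not be placed uniquely were not counted. The 250 bases before the RefSeq start of CDKN2B, chr9:22009306-22009555 on the minus strand of GRCh38.p14, are shown because this promoter belongs to the member that changed most. They hold none of the E2F, CHR or CCAAT letters searched, so none is in capitals.
CDKN2B: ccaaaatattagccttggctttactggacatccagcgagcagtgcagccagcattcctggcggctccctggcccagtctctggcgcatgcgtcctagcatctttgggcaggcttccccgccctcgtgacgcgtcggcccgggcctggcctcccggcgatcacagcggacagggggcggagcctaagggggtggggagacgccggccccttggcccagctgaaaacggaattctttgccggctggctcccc

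Of the other INK4 genes, neither was called. CDKN2C, which encodes p18, lay at 24.2 to 35.7 CPM (median 28.9) in DMSO and 28.2 to 33.96 CPM (median 30.4) in PBKi, with a 95% interval of the log2 fold change from -0.08 to 0.22. CDKN2D, which encodes p19, lay at 9.38 to 11.3 CPM (median 10.2) in DMSO and 9.20 to 11.3 CPM (median 10.4) in PBKi, with an interval from -0.13 to 0.17. Groups overlapped for both, and the PBKi range of CDKN2C lay inside its DMSO range.

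Both Cip/Kip members were downregulated. CDKN1B, which encodes p27, measured 111 to 132 CPM (median 125) in DMSO and 92.5 to 104 CPM (median 99.4) in PBKi, and the groups did not overlap (log2 fold change -0.32, SE 0.054, adjusted p = 0.000135). CDKN1C, which encodes p57, was the member with the largest fall (log2 fold change -0.74, SE 0.192, adjusted p = 0.00512). Its level was low, at 2.60 to 4.76 CPM (median 3.06) in DMSO and 1.02 to 2.25 CPM (median 2.06) in PBKi, and rested on 24 to 72 counts per library. The groups were separate, but DMSO replicate 5 stood above the other DMSO libraries and PBKi replicate 3 below the other PBKi libraries. Without DMSO replicate 5 the log2 fold change was -0.63, and without PBKi replicate 3 it was -0.58. CDKN3, a phosphatase that acts on CDK2, fell from a median of 75.8 to 63.2 CPM with overlapping groups (log2 fold change -0.30, SE 0.091, adjusted p = 0.0126).

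**Figure D2:**
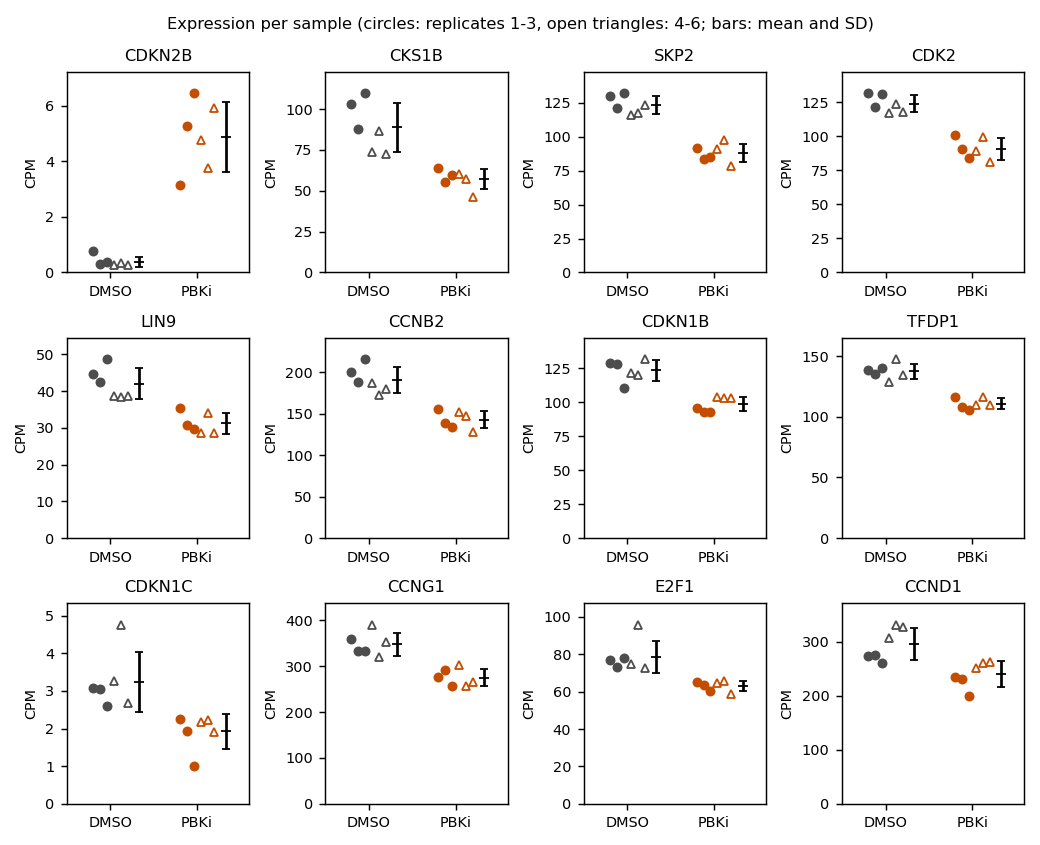
Normalised expression in CPM (y axes, from 0) of 12 members in each library of DMSO (grey) and PBKi (orange); circles are replicates 1 to 3, open triangles replicates 4 to 6, and bars the mean and SD. The groups are separate in every panel except CCND1, where the lowest DMSO library, at 261 CPM, lies under the highest PBKi library, at 263 CPM.

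SKP2 and the CKS subunits fell together. SKP2, the F-box protein that recognises phosphorylated p27 (ENSG00000145604, chr5:36152091-36196951, plus strand of GRCh37), measured 116 to 132 CPM (median 122) in DMSO and 78.8 to 97.5 CPM (median 88.1) in PBKi (log2 fold change -0.49, SE 0.057, adjusted p = 3.07e-06). CKS1B, the cofactor SKP2 needs to bind p27 (ENSG00000173207, chr1:154947129-154951727, plus strand of GRCh37), measured 72.6 to 109.6 CPM (median 87.2) in DMSO and 46.3 to 64.1 CPM (median 58.6) in PBKi (log2 fold change -0.64, SE 0.099, adjusted p = 5.96e-05). Neither gene had overlapping groups. CKS2, the paralog of CKS1B, measured 239 to 387 CPM (median 306) in DMSO and 201 to 274 CPM (median 235) in PBKi (log2 fold change -0.36, SE 0.110, adjusted p = 0.015), and here the groups overlapped, each being higher in replicates 1 to 3 than in 4 to 6. The annotation holds 7 pseudogenes named for CKS1B and 1 named for SKP2, and reads shared with such copies were not counted, so the level of CKS1B in particular is uncertain.

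Among cyclins of S phase and mitosis, CCNB1, CCNB2 and CCNA2 fell and CCNF was not called. CCNB2, a mitotic partner of CDK1, measured 173 to 216 CPM (median 187) in DMSO and 129 to 156 CPM (median 143) in PBKi, with separate groups (log2 fold change -0.42, SE 0.062, adjusted p = 4.02e-05). CCNB1, the major mitotic cyclin, measured 412 to 566 CPM (median 462) in DMSO and 319 to 408 CPM (median 373) in PBKi and was separate too (log2 fold change -0.37, SE 0.079, adjusted p = 0.00127). CCNA2, the cyclin of S and G2 phase, had a PBKi library at 112 CPM against a lowest DMSO library at 112 CPM, so its groups touched (log2 fold change -0.30, SE 0.069, adjusted p = 0.00195). CCNF, a cyclin with an F-box that marks proteins such as RRM2 for degradation, measured 46.2 to 62.1 CPM (median 48.7) in DMSO and 42.5 to 53.8 CPM (median 46.4) in PBKi (95% interval of the log2 fold change -0.23 to 0.05).

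Promoters of these genes are shown because the B-type cyclins and CKS subunits fell and their promoters hold CCAAT boxes and, in 3 of the 4, the letters of the cell cycle homology region (CHR), the element bound by MuvB. Each sequence is the 105 bases before the RefSeq start, on the plus strand of GRCh38.p14, and capitals mark CCAAT (or ATTGG, its reverse) and TTTGAA (or TTCAAA, its reverse). They lie at chr5:69167045-69167149, chr15:59105041-59105145, chr1:154974576-154974680 and chr9:89311090-89311194.
CCNB1: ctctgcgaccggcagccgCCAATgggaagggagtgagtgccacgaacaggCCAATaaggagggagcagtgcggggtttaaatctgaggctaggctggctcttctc
CCNB2: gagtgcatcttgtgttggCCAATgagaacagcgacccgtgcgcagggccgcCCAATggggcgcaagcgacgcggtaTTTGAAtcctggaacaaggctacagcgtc
CKS1B: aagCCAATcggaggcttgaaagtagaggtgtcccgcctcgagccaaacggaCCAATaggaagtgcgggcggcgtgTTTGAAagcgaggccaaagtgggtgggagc
CKS2: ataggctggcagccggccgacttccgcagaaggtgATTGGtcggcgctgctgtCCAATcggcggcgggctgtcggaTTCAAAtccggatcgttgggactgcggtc
In CCNB2, CKS1B and CKS2 the CHR letters follow the CCAAT letters toward the start, whereas the CCNB1 window holds CCAAT but not TTTGAA. Other forms of the CHR were not searched, so the search cannot say that CCNB1 lacks one.

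RefSeq promoters, from 250 bases before to 50 after the start, were matched for 37 of the 47 members and searched on both strands. CCAAT was present in 15 of the 37 (40.5%), beside 35.7% of all 27305 promoters. It was in 11 of the 18 matched promoters of downregulated members and in 4 of the 17 of members not called. TTTGAA was present in 8 (21.6%, beside 15.4% of all) and was in 4 of the 18 and 4 of the 17. Both motifs occurred together in CKS1B, CKS2, CCNB2, CDKN3, CCNF and E2F3 (16.2%, beside 6.08% of all). The E2F letters TTCCCGC or TTGGCGC were present in 10 (27.0%, beside 9.33% of all), of which 6 were among the 18 downregulated and 4 among the 17 not called. CCNF and E2F3 held both CHR and CCAAT letters and were not called. These matches are counts of letters and were not tested. The letters of TTGGCGC can overlap those of ATTGG, the reverse of CCAAT.

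Of the D-type and E-type cyclins, only CCND1 was called. CCND1, the main D-type cyclin here, measured 261 to 332 CPM (median 291) in DMSO and 199.7 to 263 CPM (median 243) in PBKi and was downregulated (log2 fold change -0.30, SE 0.075, adjusted p = 0.00362). The groups overlapped by little, and they were separate within replicates 1 to 3 and within replicates 4 to 6. CCND3 measured 54.4 to 78.5 CPM (median 59.9) in DMSO and 60.7 to 70.3 CPM (median 65.2) in PBKi and was not called (log2 fold change 0.074, SE 0.075, adjusted p = 0.451), although without DMSO replicate 5, its highest library, it was 0.15 (adjusted p = 0.0364). CCND2 was at 0 to 0.314 CPM in DMSO and 0 to 0.178 CPM in PBKi, that is 0 to 4 counts per library.

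Neither E-type cyclin, the partners of CDK2 at the start of S phase, was called. CCNE1 measured 10.4 to 12.3 CPM (median 11.02) in DMSO and 11.7 to 13.96 CPM (median 12.2) in PBKi, with most PBKi libraries above most DMSO libraries (log2 fold change 0.15, SE 0.072, adjusted p = 0.098, 95% interval 0.01 to 0.29). CCNE2 measured 24.4 to 39.99 CPM (median 27.6) in DMSO and 27.2 to 35.8 CPM (median 30.6) in PBKi (interval -0.17 to 0.26). Replicates 1 to 3 gave -0.088 on the log2 scale and replicates 4 to 6 gave 0.23, neither past the threshold. CCNE2 shares 1629 bases of exon with INTS8 on the opposite strand, and the counting is not stated to have used strand.

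Of the 4 CDKs among the members, only CDK2 was called. CDK1 and other CDKs were listed apart and are given below. CDK2, the kinase of the E-type and A-type cyclins (ENSG00000123374, chr12:56360565-56366573, plus strand of GRCh37), measured 117 to 132 CPM (median 123) in DMSO and 81.03 to 101 CPM (median 89.9) in PBKi, with separate groups (log2 fold change -0.45, SE 0.06, adjusted p = 1.33e-05). CDK4, the partner of D-type cyclins, lay at 104 to 123 CPM (median 111) in DMSO and 110.3 to 127 CPM (median 117) in PBKi with an interval of -0.04 to 0.17. CDK6, the other partner of D-type cyclins, lay at 14.3 to 19.2 CPM (median 17.3) in DMSO and 15.5 to 24.4 CPM (median 19.3) in PBKi and did not pass (log2 fold change 0.23, SE 0.098, adjusted p = 0.0721). CDK7, the kinase that activates other CDKs, had a log2 fold change of -0.044 (adjusted p = 0.649). CDK6 did pass without DMSO replicate 6, at 0.28 (adjusted p = 0.0337), or without PBKi replicate 1, at 0.28 (adjusted p = 0.0219), and with the 2 sets of replicates (1 to 3 and 4 to 6) as a covariate, at 0.22 (adjusted p = 0.024).

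The remaining cyclins moved in opposite directions. CCNG1, a p53 target that binds the phosphatase PP2A, measured 319.9 to 391 CPM (median 343) in DMSO and 256 to 303 CPM (median 272) in PBKi and was downregulated with separate groups (log2 fold change -0.34, SE 0.059, adjusted p = 0.00019). CCNH, the cyclin of CDK7, measured 97.4 to 123 CPM (median 103) in DMSO and 113 to 135 CPM (median 122) in PBKi and was upregulated with overlapping groups (log2 fold change 0.20, SE 0.066, adjusted p = 0.0242). Groups of CCNH were separate within each set of 3 replicates, but the call was lost without PBKi replicate 2, at 0.18 (adjusted p = 0.0529), or PBKi replicate 3, at 0.17 (adjusted p = 0.0606). CCNH shares 771 bases of exon with RASA1 on the opposite strand.

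RB1 was not called and RBL1 was slightly lower. RB1, the main restraint on E2F, measured 98.8 to 112 CPM (median 105) in DMSO and 107 to 117 CPM (median 112) in PBKi (log2 fold change 0.10, SE 0.046, adjusted p = 0.0897, 95% interval 0.01 to 0.19). It passed without DMSO replicate 6, at 0.13 (adjusted p = 0.0306), and with the DESeq2 Wald test, at 0.10 (adjusted p = 0.0495). It also passed with upper-quartile normalisation, at 0.12 (adjusted p = 0.0413), and with at least 50 counts in 6 samples, at 0.12 (adjusted p = 0.0346). Of 21 alternatives, not counting the stricter threshold and each replicate set alone, 17 left it uncalled. RBL1, which encodes p107, had the smallest fall of those called (log2 fold change -0.15, SE 0.055, adjusted p = 0.0405), and the call held only without DMSO replicate 1, DMSO replicate 5 or PBKi replicate 5 among the 12 fits that left out a library. Over the 12 the log2 fold change of RBL1 ran from -0.16 to -0.10 and the adjusted p from 0.0326 to 0.110. RBL2, which encodes p130, was not called (-0.12, adjusted p = 0.184).

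Of the activator E2Fs, E2F1 and E2F2 were downregulated and E2F3 was not called. E2F1, a driver of S-phase genes, measured 72.8 to 95.9 CPM (median 75.8) in DMSO and 58.7 to 65.5 CPM (median 64) in PBKi (log2 fold change -0.32, SE 0.064, adjusted p = 0.00074). The groups were separate, with DMSO replicate 5 above the other DMSO libraries, and without it the log2 fold change was -0.25. E2F2 fell by 0.27 on the log2 scale with overlapping groups (adjusted p = 0.0255), and its call was lost without DMSO replicate 3, at -0.23 (adjusted p = 0.0634), PBKi replicate 2, at -0.22 (adjusted p = 0.0682), or PBKi replicate 6, at -0.25 (adjusted p = 0.0514). E2F3 had a 95% interval of -0.13 to 0.09 around -0.021. The promoters of E2F1 (chr20:33686386-33686490, minus strand, 105 bases before the start) and E2F3 (chr6:20401749-20401878, plus strand, 130 bases) are shown because this member that fell and this one that was not called both hold E2F letters as well as CCAAT. Both are from RefSeq GRCh38.p14, and capitals mark TTGGCGC and the reverse of TTCCCGC, which reads GCGGGAA, together with CCAAT and TTTGAA.
E2F1: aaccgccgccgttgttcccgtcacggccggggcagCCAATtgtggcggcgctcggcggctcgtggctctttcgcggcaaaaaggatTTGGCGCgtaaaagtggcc
E2F3: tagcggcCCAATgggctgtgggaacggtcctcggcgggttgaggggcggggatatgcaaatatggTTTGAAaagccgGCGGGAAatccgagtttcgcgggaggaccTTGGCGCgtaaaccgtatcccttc

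E2F4 to E2F8 act mostly as repressors, and 3 of these 5 fell. E2F5, which acts with pocket proteins, measured 11.9 to 13.1 CPM (median 12.6) in DMSO and 9.19 to 10.9 CPM (median 10.2) in PBKi, with separate groups (log2 fold change -0.31, SE 0.069, adjusted p = 0.00156). E2F8, an atypical E2F that binds DNA without a DP partner, measured 28.2 to 32.9 CPM (median 28.9) in DMSO and 23.3 to 27.8 CPM (median 24.99) in PBKi, also separate (log2 fold change -0.24, SE 0.064, adjusted p = 0.00553). E2F7, the other atypical E2F, fell by 0.20 on the log2 scale with overlapping groups (adjusted p = 0.0309), and this call was lost without DMSO replicate 3 or 6 or without PBKi replicate 1, 2, 3 or 4, with log2 fold changes of -0.24 to -0.15 and adjusted p-values of 0.00924 to 0.101 over the 12 libraries left out in turn. E2F4 and E2F6 were not called, at -0.11 (adjusted p = 0.244) and 0.15 (adjusted p = 0.0998), and E2F6 passed without DMSO replicate 3, at 0.19 (adjusted p = 0.0348), and with the replicate sets as a covariate, at 0.15 (adjusted p = 0.036). E2F5 shares 991 bases of exon with RBIS on the opposite strand, and 4 pseudogenes are named for E2F6.

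Both DP partners, with which E2F1 to E2F6 bind DNA, were downregulated. TFDP1 measured 129 to 148 CPM (median 137) in DMSO and 105 to 117 CPM (median 109.6) in PBKi, with separate groups (log2 fold change -0.31, SE 0.048, adjusted p = 5.64e-05). TFDP2 had log2 fold change -0.24 (adjusted p = 0.00358), with a highest PBKi library at 91.3 CPM above a lowest DMSO library at 89.9 CPM, and the groups were separate within each set of 3 replicates.

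In the group of MuvB, MYBL2 and FOXM1, LIN9 and MYBL2 were downregulated. LIN9, a scaffold of MuvB, measured 38.5 to 48.7 CPM (median 40.7) in DMSO and 28.5 to 35.4 CPM (median 30.3) in PBKi, with separate groups (log2 fold change -0.44, SE 0.074, adjusted p = 0.000154). LIN54, the DNA-binding subunit of MuvB, was not called (-0.06, adjusted p = 0.388). MYBL2, the B-MYB factor that joins MuvB, measured 229 to 349.9 CPM (median 261) in DMSO and 202 to 248 CPM (median 229) in PBKi with overlapping groups (log2 fold change -0.23, SE 0.09, adjusted p = 0.0447), and the call was lost without DMSO replicate 1, 4 or 5 or without PBKi replicate 2, 3, 5 or 6, with adjusted p-values of 0.0216 to 0.103 over the 12 libraries left out in turn. Without DMSO replicate 5, its highest library, MYBL2 was -0.14 (adjusted p = 0.0964). FOXM1, the factor that drives mitotic genes, measured 176 to 226 CPM (median 179) in DMSO and 189 to 200.5 CPM (median 194) in PBKi and was not called (log2 fold change 0.047, SE 0.06, adjusted p = 0.559, 95% interval -0.07 to 0.16). DMSO replicate 5 was the highest FOXM1 library as well, and without it the log2 fold change was 0.11 (adjusted p = 0.0501).

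Of the regulators of CDK phosphorylation, CDC25C and WEE1 fell. CDC25C, a phosphatase that activates CDK1 at mitosis, measured 28.2 to 30.8 CPM (median 28.7) in DMSO and 22.1 to 26.6 CPM (median 25.3) in PBKi, with separate groups (log2 fold change -0.24, SE 0.059, adjusted p = 0.00364). WEE1, the kinase that inhibits CDK1 and CDK2, measured 70.4 to 80.3 CPM (median 73.5) in DMSO and 60.5 to 69.9 CPM (median 64.04) in PBKi, also separate (log2 fold change -0.21, SE 0.05, adjusted p = 0.00296). CDC25A and CDC25B, the related phosphatases, were not called, at 0.014 (95% interval -0.11 to 0.14) and 0.087 (interval -0.02 to 0.20). PKMYT1, the membrane-bound kinase that inhibits CDK1, measured 21.3 to 41.5 CPM (median 26.8) in DMSO and 19.6 to 26.04 CPM (median 22.4) in PBKi and missed the threshold (log2 fold change -0.33, SE 0.132, adjusted p = 0.0509), and it passed without DMSO replicate 2, 4 or 6 or without PBKi replicate 1 or 5, with log2 fold changes of -0.39 to -0.22 and adjusted p-values of 0.0183 to 0.111 over the 12 libraries left out in turn. With the replicate sets as a covariate PKMYT1 was -0.34 (adjusted p = 0.0362).

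Levels of different genes were compared only per length, as reads per kilobase of annotated exon on the CPM scale (RPKM, mean ± SD, n = 6). CKS2 was the most abundant member in DMSO at 497 ± 101 RPKM, followed by CCNB1 at 195 ± 25.3 and CCNG1 at 112 ± 8.14. CDKN2B at 0.0956 ± 0.0481, CDKN1C at 1.31 ± 0.317 and CDK6 at 1.38 ± 0.165 were the lowest of the tested members, and CDKN1C and CDK6 did not differ beyond their SD. CCND1 was the most abundant D-type cyclin at 62.2 ± 6.25 RPKM, beside 10.9 ± 1.49 for CCND3.

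CDK4 at 36.5 ± 2.32 RPKM and CDK2 at 31.9 ± 1.60 RPKM were the most abundant CDKs of the list in DMSO. In PBKi these were 38.2 ± 2.25 and 23.4 ± 2.07 RPKM. Among the E2Fs, E2F1 came first at 29.2 ± 3.24 RPKM in DMSO and 23.4 ± 1.03 in PBKi. E2F3 at 14.3 ± 0.797 and E2F4 at 12.9 ± 1.56 followed in DMSO, a difference within the SD of E2F4. E2F7, E2F8 and E2F6 lay at 7.72 ± 0.544, 7.21 ± 0.455 and 6.79 ± 0.629, where neighbours differed by less than the larger of their SDs but E2F7 and E2F6 by more. With PBKi, CDKN2B reached 1.22 ± 0.314 RPKM, above CDKN1C at 0.775 ± 0.188 and below CDK6 at 1.60 ± 0.232. Lengths came from a later annotation than the one counted and include rarely used exons, such as 17377 bases for SKP2, so the order is approximate. In addition, 17 of the 47 members share exon bases with a gene on the opposite strand, and the counting is not stated to have used strand. CDK4 shares 1369 of its 3094 bases with TSPAN31 and CDK2 shares 565 of its 3887 with ENSG00000258554, so their levels are uncertain.

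**Figure D3:**
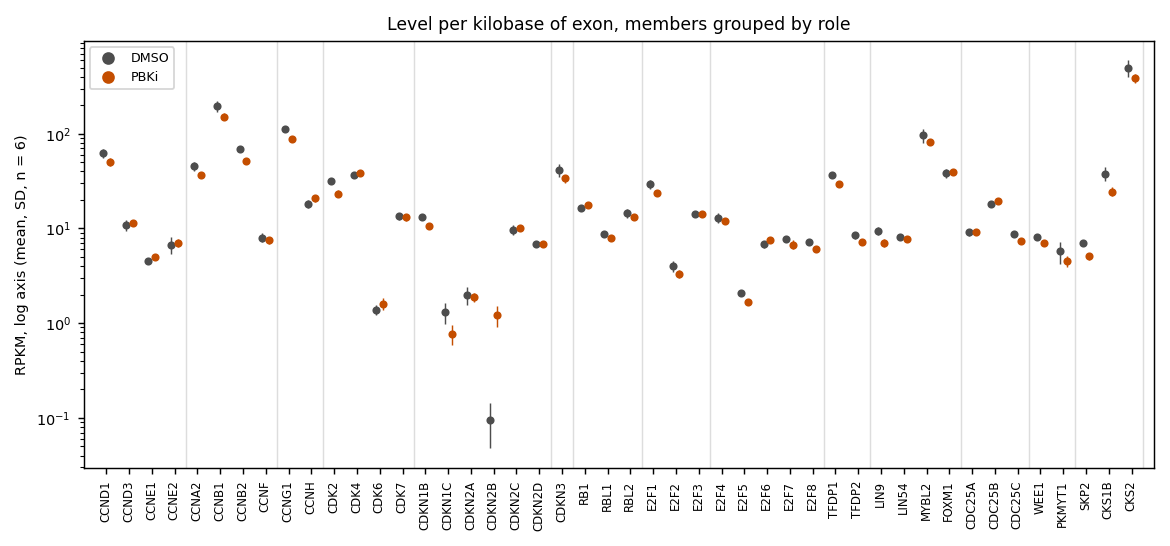
Mean level per kilobase of exon (RPKM, log y axis; bars, SD; n = 6) of the 46 tested members in DMSO (grey) and PBKi (orange), grouped by role with grey lines between roles. CKS2, CCNB1 and CCNG1 are the highest and CDKN2B in DMSO, at 0.0956 RPKM, the lowest.

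Log2 ratios of 2 members of the same role within each library were also read, since both genes of a ratio share the depth of their library. The 64 pairs were computed after the fold changes had been seen, and they are given as descriptions without a test. Groups did not overlap for 15 of the 64 pairs and overlapped for the others, and the pairs below were chosen after their values were seen. Every pair with CDKN2B, which held 3 to 16 counts per DMSO library, was among the 15, as were several with CDKN1C, also at low counts. The same genes thus recur in this count, and no share over pairs of other genes was computed to set beside it. The ratios are not corrected for gene length, so their sign does not say which gene is more abundant, and only the shift between groups is read. The CDK2 to CDK4 ratio was 0.0063 to 0.25 in DMSO and -0.51 to -0.24 in PBKi, lower in every PBKi library. The RB1 to RBL1 ratio was 0.94 to 1.08 in DMSO and 1.20 to 1.34 in PBKi, higher in every PBKi library. The E2F5 to E2F6 ratio was -1.28 to -0.98 in DMSO and -1.69 to -1.45 in PBKi, and the CDKN1B to CDKN2D ratio was 3.50 to 3.73 in DMSO and 3.16 to 3.37 in PBKi, both lower in every PBKi library. CCNG1 to CCNH shifted from a range of 1.43 to 1.94 to one of 0.94 to 1.34. By contrast, the ratios of SKP2 to CKS1B (0.27 to 0.76 in DMSO and 0.51 to 0.77 in PBKi) and TFDP1 to TFDP2 (0.23 to 0.59 in DMSO and 0.26 to 0.49 in PBKi) overlapped between groups, and each pair of genes fell.

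**Figure D4:**
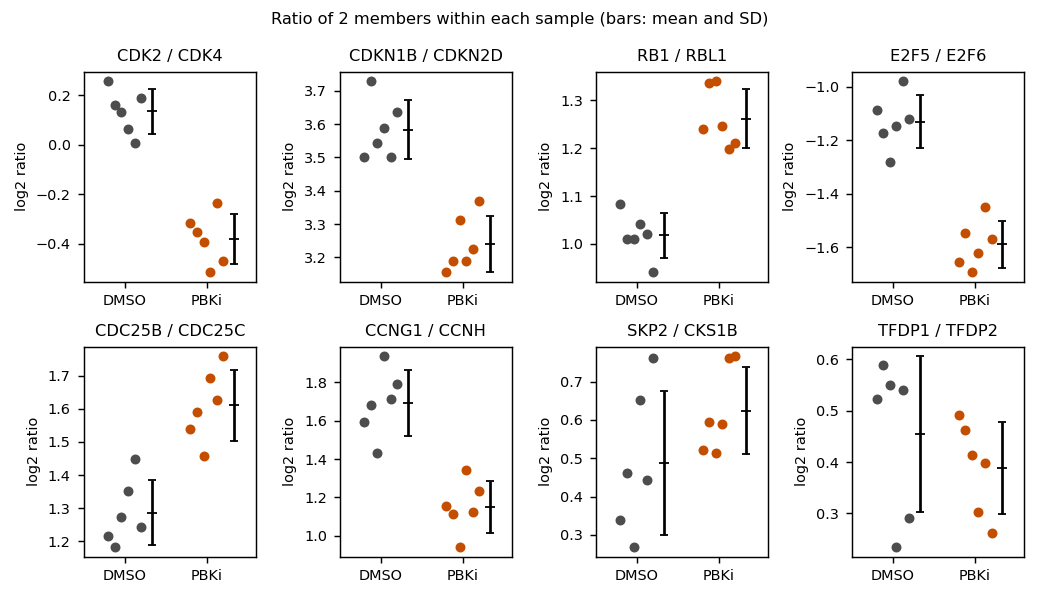
Log2 ratio of the CPM of 2 same-role members (y axes, unitless, not from 0) in each DMSO (grey) and PBKi (orange) library, with mean and SD. The groups are separate for CDK2 to CDK4, CDKN1B to CDKN2D, RB1 to RBL1, E2F5 to E2F6, CDC25B to CDC25C and CCNG1 to CCNH, and they overlap for SKP2 to CKS1B and TFDP1 to TFDP2.

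Libraries of replicates 1 to 3 stood apart from those of replicates 4 to 6 on the second principal component of all genes, which held 9.76% of the variance, beside 61.0% for the first, which separated the treatments. On the second component replicates 1 to 3 lay at 4.92 to 17.1. DMSO replicate 5, the shallowest library, lay furthest out at -27.6, and the rest of replicates 4 to 6 lay at -9.87 to -3.88. What separates these sets is not given in the sources used here. Among the members, the sets differed visibly for CKS2, where DMSO spanned 345 to 387 CPM and PBKi 236 to 274 CPM in replicates 1 to 3, and 239 to 267 and 201 to 235 CPM in replicates 4 to 6. Every PBKi library lay below every DMSO library within both sets, with log2 fold changes of -0.48 and -0.18, of which the second was not called (adjusted p = 0.148). Of the 9 downregulated members whose groups overlapped, 4 (CCND1, CCNA2, TFDP2 and CKS2) had separate groups within each set.

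Within replicates 1 to 3 alone, 24 members were called lower and 3 higher, beside 21.3% and 22.6% of all genes tested there. Within replicates 4 to 6 alone 11 were lower and 2 higher, beside 8.48% and 9.08% of all genes tested there. In this order, CKS1B was -0.74 and -0.49, SKP2 was -0.55 and -0.41, and CCNB1 was -0.47 and -0.23 on the log2 scale, and CCNB1 was not called in replicates 4 to 6 (adjusted p = 0.0814). CCND1 and E2F1 were lower in both sets too, at -0.28 and -0.32 for CCND1 and -0.26 and -0.36 for E2F1. The difference between the sets was not tested.

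**Figure D5:**
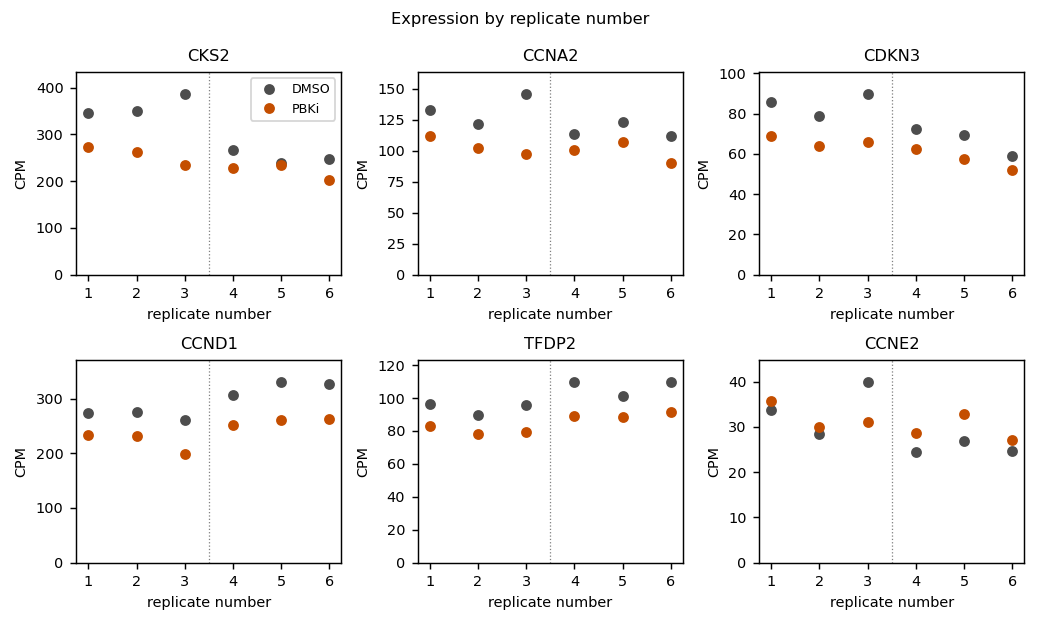
Normalised expression in CPM (y axes, from 0) of 6 members by replicate number (x axes) in DMSO (grey) and PBKi (orange); the dotted line divides replicates 1 to 3 from 4 to 6. In CKS2, CCNA2, CDKN3, CCND1 and TFDP2 each PBKi library lies under the DMSO library of the same number, whereas CCNE2 changes order between numbers; the numbers were not treated as pairs in the tests reported.

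Most listed targets of these regulators were called lower. Of 22 listed E2F targets of S phase, 16 were lower and 0 higher (median log2 fold change -0.26). Examples were POLE2, a subunit of DNA polymerase epsilon (log2 fold change -0.65, adjusted p = 3.43e-05), CDC45, a part of the replicative helicase (log2 fold change -0.56, adjusted p = 5.22e-06), and TYMS, thymidylate synthase (log2 fold change -0.46, adjusted p = 1.57e-05). Of 22 listed G2/M genes bound by MuvB or FOXM1, 20 were lower and 0 higher (median -0.35), among them the spindle checkpoint kinase TTK (log2 fold change -0.58, adjusted p = 2.56e-05), the cytokinesis factor ECT2 (log2 fold change -0.48, adjusted p = 2.9e-05) and the centrosome kinase NEK2 (log2 fold change -0.46, adjusted p = 3.98e-05). These counts stand beside 21.5% of all genes called lower and 20.1% called higher. The gene lists here and below were chosen with earlier results of these data known. Their counts are therefore descriptions, and the difference from the share over all genes was not tested.

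Of 21 further genes of the CDK system, 20 were tested, 4 were lower and 3 higher, beside 21.5% and 20.1% of all genes. CDKN1A, which encodes the third Cip/Kip inhibitor p21, measured 45.99 to 58.9 CPM (median 50.1) in DMSO and 89.1 to 105 CPM (median 97.3) in PBKi, and was upregulated (log2 fold change 0.94, adjusted p = 2.94e-09), unlike CDKN1B and CDKN1C. CCNG2, an atypical cyclin, was lower (log2 fold change -0.84, adjusted p = 2.38e-05), and so was CDK1, the mitotic kinase, at 563 to 860.1 CPM (median 709) in DMSO and 426 to 566 CPM (median 473) in PBKi (log2 fold change -0.54, adjusted p = 0.000289). Among the other CDKs of this list, CDK19 was lower (log2 fold change -0.24, adjusted p = 0.0159). CDK13 (0.41, adjusted p = 7.7e-05) and CDK9 (0.19, adjusted p = 0.0287) were higher. CDK5, CDK8 and CDK12 were not called, and CDK3 had no counts.

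The transcript of the targeted kinase PBK was itself lower in PBKi, at 140.3 to 185 CPM (median 168) beside 170 to 270 CPM (median 217) in DMSO (log2 fold change -0.42, adjusted p = 0.00194), although the inhibitor acts on the protein and its RNA checks no label. Luminal prostate markers were all measured, with a summed level of 5351 to 6427 CPM in DMSO and 2842 to 3838 CPM in PBKi. Of these 10 markers 7 were lower and 1 higher, beside 21.5% and 20.1% of all genes, and their part in the changes above was not tested. Basal markers summed to 1.33 to 1.84 CPM in DMSO and 0.813 to 1.61 CPM in PBKi, with TP63 at no more than 2 counts in any library. Only 1 of the 4, KRT14, was tested, and it was lower. Stromal markers summed to 22.0 to 27.0 CPM and 20.5 to 25.4 CPM, mostly COL1A1. Of these 7, 3 were tested and 1 was lower. Immune markers summed to 0.415 to 0.866 CPM and 0.624 to 1.14 CPM, with none of 6 tested and MS4A1 at 0 in every library. Endothelial markers summed to 4.03 to 7.25 CPM and 3.14 to 4.63 CPM, nearly all VWF. Of the 3 matched, only VWF was tested, and it was lower. So few of these markers were tested that their counts cannot be set against the 21.5% of all genes called lower.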

How the data were processed

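The authors aligned 40-base single-end reads to GRCh37 with TopHat 2.0.4 and an Ensembl annotation, and deposited HTSeq-count 0.5.3p9 counts per gene and sequencing lane, without normalisation. Lanes of a library, which differed by no more than counting noise (chi-square over its degrees of freedom, 0.993 to 1.02), were summed (4 lanes, 3 for DMSO replicate 5). Rows naming no gene, 34.5% to 37.1% of all rows by count, were left out. Samples were grouped by their labels. The members and the gene lists were chosen with earlier results of these data known.

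The 14505 genes that reached 10 counts in 6 or more samples were compared by the quasi-likelihood test of edgeR 4.0.16 (R 4.3.3) after TMM scaling, without covariates, with Benjamini-Hochberg adjustment over all genes tested at 0.05. Members with an adjusted p under 0.05 and separate groups, and those that define a role (D-type and E-type cyclins, CDK inhibitors, RB1 and E2F1), were named by a fixed rule with their ranges, and of other lists the 3 called genes with the largest change. CDK4, CDK6, CCNF, CCNH, CKS2, MYBL2, FOXM1, PKMYT1, the other CDKs beside CDK1 and the leave-out values were added after their values were seen. Symbols, exon lengths and overlaps came from GENCODE 44 on GRCh37, and promoters from RefSeq GRCh38.p14. The test was checked on simulated data. Alternatives were other filters and scalings, DESeq2 1.42.0, limma-voom (limma 3.58.1), lanes 6 to 8, a replicate block, a covariate for replicates 1 to 3 against 4 to 6, each set alone, a stricter threshold and each sample left out. With 9663203 to 28029908 reads on genes per sample, 1 count is worth more in shallow libraries, and intervals on counts cover counting error only. The siPBK arm was not analysed here.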

Additional observations from a re-analysis of the deposited data

Results flagged for a closer look

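Each of the 92 groups of 6 libraries (46 members in 2 groups) was examined for a library lying far from the rest, by the gap to its nearest neighbour over the whole range with a critical value of 0.625, and 10 groups (10.9%) had one. In independent groups with a normal spread, chance alone would mark about 1 in 20. The 92 groups share the same libraries, and no share over all genes was computed, so 10.9% is not read as a trait of the members. DMSO replicate 5, the library with 3 lanes, was the high one in 4 groups: CCNF at 62.1 CPM (others 46.2 to 49.6), CDKN1C at 4.76 CPM (2.60 to 3.25), E2F1 at 95.9 CPM (72.8 to 78.0) and FOXM1 at 226 CPM (176 to 194). PBKi replicate 5 was high in CCNE1 at 14.0 CPM (others 11.7 to 12.5) and in CDC25A at 42.2 CPM (36.4 to 37.9). CDKN1C was low in PBKi replicate 3 at 1.02 CPM (others 1.92 to 2.25), which rested on 24 counts. CDKN2B was high in DMSO replicate 1 at 0.768 CPM (others 0.252 to 0.361), which rested on 16 counts. RBL1 was high in DMSO replicate 6 at 58.5 CPM (others 49.0 to 52.4). E2F4 was high in PBKi replicate 1 at 49.2 CPM (others 39.9 to 42.6).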

How the results depend on the processing

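The number of members lower in PBKi was 24 and stayed between 18 and 25 in every alternative run except replicates 4 to 6 alone, which gave 11. Leaving out each library gave 20 to 24 lower and 1 to 4 higher. The 2 members higher in PBKi became 4 with upper-quartile normalisation, 4 with the 2 sets of replicates, 1 to 3 and 4 to 6, as a covariate, and 1 at an adjusted p under 0.01; without DMSO replicate 6 there were 4, and without PBKi replicate 2 or 3 there was 1. With the replicate number as a block, 25 members were lower and 4 higher, and over all genes 3803 were lower and 3485 higher instead of 3125 and 2921; CDK6 (0.22, adjusted p = 0.0131), E2F6 (0.15, adjusted p = 0.0393) and PKMYT1 (-0.32, adjusted p = 0.00700) passed there. Deviations of same-numbered samples correlated at 0.0887 to 0.299, over 0.1 in 5 of the 6 pairs, and 8 of the 12 samples correlated best with their own number, a hint of pairing from the data; since 1 pair was not over 0.1, the numbers were not treated as pairs. Outside the alternatives with fewer samples per set or a stricter threshold, 20 of the 24 lower calls held in every alternative that tested them, and those of RBL1, E2F2, E2F7 and MYBL2 did not. Of the members not called, CCND3, CDK6, RB1, E2F6 and PKMYT1 passed in at least 1 of these alternatives. Under the filter of at least 50 counts, CDKN2B and CDKN1C were not tested. The log2 fold changes that changed sign all belonged to members not called. In replicates 1 to 3 alone CCNE2 was -0.088, CDKN2D -0.014, LIN54 0.0030 and CDC25A -0.012, and in replicates 4 to 6 alone CDK7 was 0.024 and E2F3 0.014. Leaving out each library gave -0.0010 to 0.16 for CCNE2, -0.010 to 0.057 for CDKN2D, -0.043 to 0.013 for E2F3 and -0.0075 to 0.051 for CDC25A. The causes of these changes were not tested. Depth limits CDKN2B in DMSO (3 to 16 counts a library), CDKN1C (24 to 72) and CCND2 (0 to 4) most.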

Other observations

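Subunits of the ubiquitin ligases that degrade cyclins and CDK inhibitors, with their partner enzymes and regulators, were listed apart from the members. Of 14 such genes, all tested, 7 were lower in PBKi and 0 higher, with a median log2 fold change of -0.18, beside 21.5% of all genes called lower. RBX1, the RING subunit of SCF ligases, had a log2 fold change of -0.36 (adjusted p = 0.0152), FBXO5, the inhibitor of the anaphase-promoting complex, -0.34 (adjusted p = 0.000876), and ANAPC11, the RING subunit of that complex, -0.34 (adjusted p = 0.00159). Of 9 further partners of RB, E2F and MuvB, 8 were matched and tested, 3 were lower and 0 higher (median -0.17). HDAC1, the histone deacetylase recruited by pocket proteins, measured 333 to 347 CPM in DMSO and 253 to 290 CPM in PBKi, with separate groups (log2 fold change -0.34, adjusted p = 2.74e-05). TOPBP1, a replication and checkpoint scaffold, had a log2 fold change of -0.20 (adjusted p = 0.0017), and RBBP4, the histone chaperone subunit of MuvB, -0.17 (adjusted p = 0.0144).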
